A study of Mus musculus with 24 samples.

Results

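Rcan1, Rcan2, Rcan3, Cabin1, Chp1 and Akap5 encode proteins that restrain or anchor calcineurin, the phosphatase whose beta catalytic subunit is encoded by Ppp3cb, the gene targeted in the knockout (KO) mice of this study. They were taken by symbol from the deposited count table and are 6 of the 41128 genes it lists. All 6 passed the filter on low counts and were tested with 16316 genes in all.

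Total RNA of mouse aorta was sequenced as 24 libraries to ask what part Ppp3cb plays in the vascular changes that angiotensin II (AngII) brings about. The 8 groups of 3 libraries were KO mice given AngII, KO controls, wildtype (WT) mice given AngII and WT controls, each as females and as males. All mice were 5 months old. AngII, a peptide hormone that constricts vessels and raises blood pressure, was released by osmotic minipumps at 500 ng/kg/min for 4 weeks, and the labels do not say whether controls carried a pump. The KO is the line B6,129S6-Ppp3cbtm1Jmk/J, on a mixed background, and the labels name neither the part of the gene it lacks nor a Cre or promoter. Libraries are numbered within a group without a statement that each came from its own mouse, so p-values measure the spread between these libraries.

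Calcineurin is switched on by calcium and calmodulin and removes phosphates from NFAT transcription factors, which then enter the nucleus. The RCAN proteins, products of Rcan1, Rcan2 and Rcan3, bind calcineurin and inhibit it, and Rcan1 is itself an NFAT target, so that its RNA is widely used as a readout of calcineurin activity in heart and vessel. Cabin1 binds and inhibits calcineurin and represses MEF2 transcription factors, Chp1 resembles the regulatory subunit of calcineurin and partners the sodium-proton exchanger, and Akap5 holds calcineurin and protein kinases at the membrane near calcium channels.

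Rcan1 lies on chromosome 16 of mm10 (positions 92391953 to 92470867, minus strand) and has 2 starts in the RefSeq promoter table for GRCm38.p6, the same build. The internal start lies 66091 bases downstream of the distal one. The 250 bases before each start are shown because the internal promoter is the one known to respond to calcineurin and NFAT. Capitals mark the NFAT core motif GGAAA, or TTTCC where it lies on the other strand. The distal window is chr16:92466170-92466419 and the internal window chr16:92400079-92400328, both on the minus strand and written 5′ to 3′.
Rcan1 distal start: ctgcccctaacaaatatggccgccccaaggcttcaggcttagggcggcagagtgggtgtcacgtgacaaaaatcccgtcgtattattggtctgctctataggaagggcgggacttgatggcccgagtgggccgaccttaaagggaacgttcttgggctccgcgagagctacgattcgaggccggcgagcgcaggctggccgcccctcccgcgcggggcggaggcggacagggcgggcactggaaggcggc
Rcan1 internal start: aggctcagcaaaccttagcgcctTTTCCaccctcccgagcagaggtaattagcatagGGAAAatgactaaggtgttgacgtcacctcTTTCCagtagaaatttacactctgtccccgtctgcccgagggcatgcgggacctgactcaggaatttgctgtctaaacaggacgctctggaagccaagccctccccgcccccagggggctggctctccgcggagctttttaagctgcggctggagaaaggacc
The internal window holds 3 motifs, 1 of them as GGAAA, whose first bases lie 227, 193 and 163 bases before the start, and the distal window holds 0. Among 32851 promoter windows of the same length, 55.6% held at least 1 motif on either strand and 6.4% held 3 or more. Of the 9 windows of the 6 genes, the first start of Rcan2 had 2 motifs, a number that 21.4% of windows reach, the start of Rcan3 had 1, and 6 windows, the distal one of Rcan1 among them, had 0. A match is a description of letters, and a window without one says only that these letters are not in it. The deposited counts are sums over a whole gene and cannot separate RNA from the 2 Rcan1 starts.

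**Figure D1:**
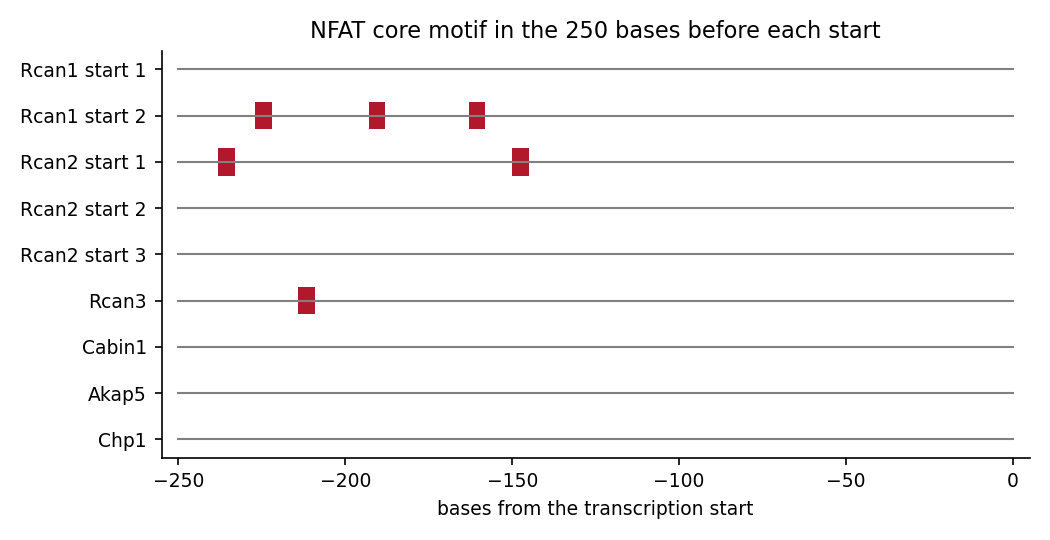
Positions of the NFAT core motif GGAAA, on either strand, in the 250 bases before each RefSeq start of the 6 genes. Each line is 1 window, the x axis is the distance in bases from the start, and red boxes are matches. The internal start of Rcan1 (start 2) carries 3 and its distal start 0.

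Library totals ran between 1523328 and 6352365 counts. Levels are given as CPM, counts scaled to 1 common library size after TMM scaling, a correction for library composition. The KO control females stood apart. They were the shallowest group, at 1523328 to 2401264 counts, and 0.163 ± 0.055% of their protein-coding counts lay on olfactory and vomeronasal receptor genes (SD, n = 3), against means of 0.0146% to 0.0717% in the other 7 groups. Ppp3cb stood at 21.6 ± 5.20 CPM in KO AngII and 21.0 ± 7.41 CPM in KO control aortas, against 42.2 ± 13.8 CPM in WT AngII and 41.7 ± 8.25 CPM in WT control aortas (SD, n = 6 each). Ppp3cb RNA was thus lower but still counted in KO aortas, and counts over the whole gene do not show that the transcript is absent or which part is lost. Smooth muscle markers, 10 of 10 of them detected, summed to 7681 CPM or more in every library.

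Rcan1 was the 1 gene of the 6 that passed a test, and it was low in KO aortas. After AngII it averaged 11.5 ± 3.94 CPM in KO mice and 40.8 ± 10.6 CPM in WT mice (SD, n = 6 each). KO AngII females had 15.3, 10.3 and 7.87 CPM and KO AngII males 17.2, 10.6 and 7.65 CPM, against 25.0, 53.6 and 44.8 CPM in WT AngII females and 31.9, 41.4 and 48.3 CPM in WT AngII males. The highest KO library lay below the lowest WT library, so the groups did not overlap. Groups failed to overlap in this way, with KO below WT, at 0.276% of all genes tested.

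The fitted difference in Rcan1 between KO and WT mice under AngII was -1.83 ± 0.35 log2 (SE, 95% interval -2.52 to -1.15), which is 0.281 times the WT level. It passed the threshold of 0.05 on the adjusted p (edgeR quasi-likelihood F-test, two-sided, adjusted p = 0.00744). This comparison called 0.355% of all genes tested, 58 in number, and 0.049% as lower in KO. Among the 8 genes called lower, Rcan1 had the second smallest p, so 1 of 6 members was called, and none of the other 5. In bulk tissue, fewer cells that express a gene and less of its RNA per cell cannot be told apart. The call was kept when each of the 24 libraries was left out in turn, with values between -2.02 and -1.74.

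**Figure D2:**
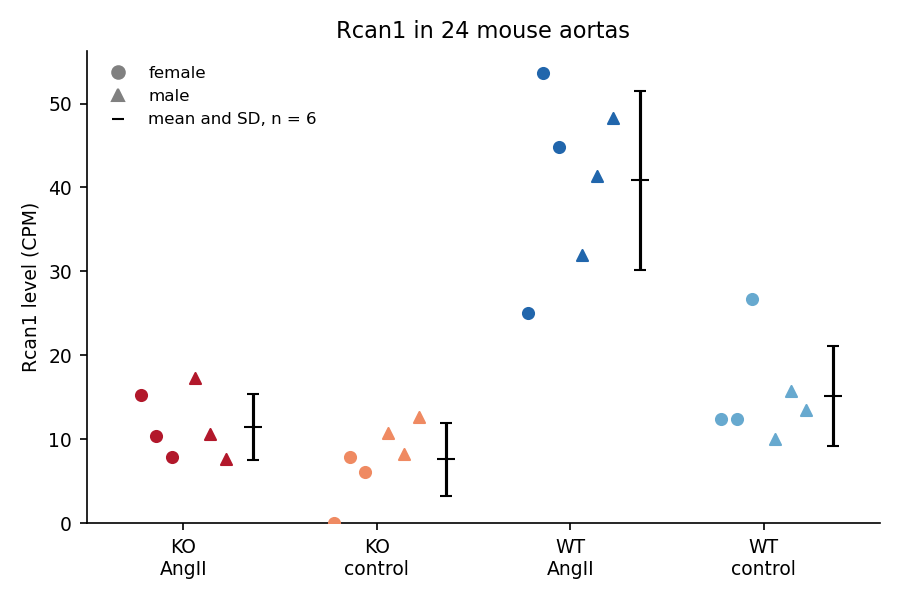
Rcan1 in CPM (y axis) in the 24 libraries, in 4 groups of genotype and treatment with circles for females and triangles for males. Horizontal marks and bars are the mean and SD of 6 libraries. The KO AngII libraries lie between 7.65 and 17.2 CPM, all below the WT AngII libraries at 25.0 to 53.6 CPM.

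Both sexes showed the difference in Rcan1 under AngII. It was -1.87 ± 0.50 log2 in females and -1.79 ± 0.49 log2 in males, and in each sex the 3 KO libraries lay below the 3 WT libraries, as for 4.82% of all genes in females and 6.47% in males. Neither passed alone over all genes (adjusted p = 0.439 in females and 0.384 in males, edgeR). The female minus male difference was -0.08 ± 0.69 log2.

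Markers of other cell types are given beside this comparison. Skeletal muscle markers, 10 genes of which 1, Tnnc2, was at 0 in both groups, summed to 71.5 to 176 CPM in KO AngII and 19.5 to 64.1 CPM in WT AngII aortas. Most of that sum was Tcap, a protein of the sarcomere, which averaged 59.8 CPM over the 24 libraries, while none of the other 9 averaged more than 3.32 CPM. Tcap was called higher in KO (1.71 ± 0.31 log2, edgeR adjusted p = 0.00425). Of the 4 markers tested it was the 1 that was called, with Tnnt3 at 0.66 ± 0.85, Myh1 at 0.96 ± 0.88 and Actn3 at 1.92 ± 1.12 log2, so the sum follows 1 gene. The summed fibroblast markers were 3022 to 4542 CPM in KO AngII and 3272 to 6848 CPM in WT AngII aortas, with 7 of 7 detected. They were higher in KO for 1 of 7, with a median of -0.29 log2. Brown adipocyte markers were higher for 0 of 5 (median -0.74) and cardiac markers for 0 of 4 tested (median -0.99). Smooth muscle markers were higher for 3 of 10 (median -0.15), macrophage for 5 of 10 (0.01) and endothelial for 7 of 10 (0.14). In these 6 lists 0 were called. Smooth muscle markers stood at 11790 to 23220 CPM in KO AngII and 13420 to 22170 CPM in WT AngII aortas. The receptor share was 0.0241% to 0.107% in KO AngII and 0.0111% to 0.0346% in WT AngII libraries. With the receptor share as a covariate the Rcan1 difference was -2.32 ± 0.55 log2 and no longer called (edgeR adjusted p = 0.302). The part of the marker genes in the Rcan1 difference was not tested.

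Without AngII, Rcan1 averaged 7.60 ± 4.38 CPM in KO and 15.2 ± 5.97 CPM in WT controls (SD, n = 6 each). KO control females had 0, 7.92 and 6.10 CPM and KO control males 10.8, 8.21 and 12.6 CPM, against 12.5, 12.4 and 26.8 CPM in WT control females and 10.1, 15.8 and 13.5 CPM in WT control males. The groups overlapped through the males. The library at 0 is the shallowest of all, and its 0 counts allow up to 1.91 CPM (3 counts, counting error only).

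The control difference in Rcan1 was -1.05 ± 0.37 log2 and was not called (edgeR adjusted p = 0.285), in a comparison that called 0.221% of all genes. No other member was called. With KO control females reduced to replicate 2 it was -0.75 ± 0.35 log2. Macrophage markers were higher in KO than in WT controls for 10 of 10 tested, with a median of 1.24 log2, 0 called and sums of 91.1 to 536 CPM in KO and 81.3 to 128 CPM in WT controls. Smooth muscle markers were lower for 10 of 10, with a median of -0.32 log2 and 0 called, and summed to 7681 to 12250 CPM in KO control females and 16530 to 17640 CPM in WT control females. Brown adipocyte markers were higher in KO for 0 of 5 (median -0.78), adipocyte for 1 of 9 (-0.46) and endothelial for 5 of 10 (-0.04). Fibroblast markers were higher for 5 of 7 (0.15) and neural and Schwann for 9 of 11 (0.55). Cardiac markers were higher for 3 of 4 tested (0.93) and skeletal muscle for 3 of 4 tested (0.72). None of these was called. The part of the marker genes in the Rcan1 control values was not tested.

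For Rcan1 in controls, females alone gave -1.78 ± 0.55 log2, with KO below WT in all libraries, as for 11.1% of all genes (edgeR adjusted p = 0.111), and males alone -0.32 ± 0.49 log2 with overlapping groups. The female minus male difference of -1.46 ± 0.74 log2 was not called (edgeR adjusted p = 0.444). Over all mice, the KO and WT aortas differed in Rcan1 by -1.44 ± 0.25 log2 (edgeR adjusted p = 0.001), in a comparison that called 1.34% of all genes, and 0.227%, or 37 genes, as lower in KO. Within the same fit the female contrast was -1.83 ± 0.37 log2 and called (edgeR adjusted p = 0.00681), where 1.13% of all genes were. The male contrast was -1.06 ± 0.35 log2 and not called (edgeR adjusted p = 0.505). Female minus male was -0.77 ± 0.50 log2, not called (edgeR adjusted p = 0.821). The call over all mice was lost with the receptor share as covariate (-1.82 log2, edgeR adjusted p = 0.219). Separate fits of 1 sex called neither females (-1.82 log2, edgeR adjusted p = 0.051) nor males (-1.06 log2, edgeR adjusted p = 0.237).

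In KO aortas AngII left Rcan1 at 7.65, 10.5 and 17.2 CPM as lowest, median and highest, against 0, 8.06 and 12.6 CPM in KO controls. The groups overlapped. The difference was 0.66 ± 0.37 log2 (95% interval -0.07 to 1.39) and was not called (edgeR adjusted p = 0.693). No gene was called here by edgeR, so the background was 0%. DESeq2 made 17 calls and limma-voom 0, and before adjustment 1258 genes had p under 0.05 in edgeR. With KO control females reduced to replicate 2 the difference was 0.33 ± 0.35 log2. It was 1.17 ± 0.55 log2 in females and 0.15 ± 0.50 log2 in males.

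In WT aortas Rcan1 stood higher with AngII than without, by a difference that missed the threshold. WT AngII libraries had 25.0, a median of 43.1 and 53.6 CPM as lowest, middle and highest, against 10.1, 13.0 and 26.8 CPM in WT controls. They overlapped through a single pair, since WT control female 3 lay above WT AngII female 1. The difference was 1.44 ± 0.34 log2 (95% interval 0.77 to 2.12), or 2.71 times the control level (edgeR adjusted p = 0.07). This comparison called 0.208% of all genes, and none of the 6 members. In females the difference was 1.26 ± 0.48 log2, and in males 1.62 ± 0.49 log2 with WT AngII above WT control in every library, as for 8.1% of all genes.

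Whether the WT response passed depended on the libraries and the test. It was called in 9 of 38 other settings. DESeq2 called it at 1.39 log2 (adjusted p = 0.00815), among 80 genes in all. limma-voom called it at 1.45 log2 (adjusted p = 0.0215), among 28. By edgeR it was called in 3 of the 24 fits without 1 library. These were without KO control female replicate 1 (1.44 log2, adjusted p = 0.00904) or 2 (1.44 log2, adjusted p = 0.0452), and without WT AngII female replicate 1 (1.57 log2, adjusted p = 0.0238). The others did not call it, such as that without WT AngII female replicate 2 (1.32 log2, edgeR adjusted p = 0.306). Fibroblast markers moved alongside, at 3272 to 6848 CPM in WT AngII and 1798 to 2898 CPM in WT control aortas, and 2 of the 7, the collagen genes Col1a1 (1.46 ± 0.23 log2, edgeR adjusted p = 0.00235) and Col3a1 (1.22 ± 0.23 log2, edgeR adjusted p = 0.0112), were called higher. Macrophage markers were higher for 9 of 10, with a median of 0.69 log2, and summed to 126 to 227 CPM in WT AngII and 81.3 to 128 CPM in WT control aortas. Endothelial markers were lower for 9 of 10, with a median of -0.66 log2, and summed to 467 to 1174 CPM in WT AngII and 492 to 2128 CPM in WT control aortas. In both lists 0 were called. In KO mice endothelial markers were higher with AngII for 1 of 10 (median -0.40 log2), macrophage markers for 2 of 10 (-0.47) and fibroblast markers for 5 of 7 (0.18). Neural and Schwann markers were higher for 2 of 11 in each genotype, with medians of -0.70 log2 in WT and -1.03 log2 in KO mice. Of these, 0 were called. The part of these markers in the Rcan1 response was not tested.

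Whether the AngII response of Rcan1 differed between genotypes was tested directly, as the KO response minus the WT response. The difference was -0.78 ± 0.51 log2 (95% interval -1.77 to 0.21, edgeR adjusted p = 1.00), and it was not called. This test called 0% of all genes by edgeR, with 657 at an unadjusted p under 0.05 and 0 by DESeq2 or limma-voom. Females gave -0.09 ± 0.76 log2 and males -1.47 ± 0.69 log2, and the female minus male difference of 1.39 ± 1.00 log2 was not called (edgeR adjusted p = 0.865). With KO control females reduced to replicate 2 the difference in response was -1.11 ± 0.43 log2. Each group of libraries enters several of these comparisons, so their values stand side by side and are not independent of one another.

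Over all mice the AngII effect on Rcan1 was 1.05 ± 0.25 log2 (edgeR adjusted p = 0.043), where 0.656% of all genes were called. The call was lost when any 1 of 14 libraries was left out, namely replicates 1 and 2 of KO AngII females, KO AngII males, KO control males and WT control females, replicates 2 and 3 of WT AngII females and WT AngII males, and replicates 1 and 3 of WT control males. Values without 1 library were 0.92 to 1.22 log2.

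The other RCAN genes did not pass in any comparison. Rcan2, on chromosome 17 (positions 43801351 to 44039516, plus strand), had 261 to 394 CPM in KO AngII (median 313), 169 to 325 CPM in KO control (median 266), 211 to 387 CPM in WT AngII (median 269) and 232 to 313 CPM in WT control aortas (median 274). All groups overlapped. KO and WT differed by 0.19 ± 0.17 log2 under AngII (95% interval -0.14 to 0.52) and by -0.10 ± 0.17 log2 in controls. AngII and control differed by 0.31 ± 0.17 log2 in KO mice and by 0.02 ± 0.17 log2 in WT mice, where the sign turned under RLE and upper-quartile size factors.

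In KO mice the Rcan2 libraries separated by treatment in females and not in males. KO AngII females had 291, 334 and 394 CPM, against 169, 231 and 232 CPM in KO control females, with no overlap, as for 6.85% of all genes. The difference was 0.69 ± 0.24 log2 in females and -0.07 ± 0.24 log2 in males, and the female minus male difference of 0.76 ± 0.34 log2 was not called (edgeR adjusted p = 0.623). The KO control females also lay below WT control females, at 264, 283 and 256 CPM, a separation found for 11.1% of all genes. None of these passed (edgeR adjusted p = 0.239 for the female AngII difference and 0.50 for the female control difference). The KO control females are the shallow group with the high receptor share, and their smooth muscle markers lay below those of WT control females, as given for Rcan1. Their part in the Rcan2 values was not tested.

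Rcan3, on chromosome 4 (positions 135412308 to 135433853, minus strand), had 6.97 to 17.2 CPM in KO AngII (median 13.8), 8.28 to 16.5 CPM in KO control (median 11.1), 9.21 to 17.3 CPM in WT AngII (median 12.5) and 9.31 to 23.3 CPM in WT control aortas (median 12.9). Over both sexes all groups overlapped. In females, KO AngII libraries (12.9, 15.9 and 17.2 CPM) lay above KO controls (8.28, 10.4 and 9.42 CPM), as for 6.85% of all genes. The female difference was 0.70 ± 0.45 log2 (edgeR adjusted p = 0.551), and the male one -0.43 ± 0.43 log2 with overlapping groups. Female minus male was 1.13 ± 0.62 log2, not called (edgeR adjusted p = 0.681). The KO control females are again the shallow group with the high receptor share. The part of depth and receptor share in the Rcan3 values was not tested. The KO against WT difference was -0.01 ± 0.30 log2 under AngII (95% interval -0.60 to 0.58), where its sign turned under RLE and upper-quartile size factors, and -0.31 ± 0.31 log2 in controls. AngII differed from control by 0.13 ± 0.31 log2 in KO and -0.17 ± 0.30 log2 in WT mice. The microRNA gene Mir700 overlaps 0.861% of the exon bases of Rcan3, and the exons of the other 5 genes share no base with another gene, although the antisense gene Gm46555 lies within the Rcan1 locus.

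The make-up of the RCAN transcripts was also set out by group. Per kb of exon, Rcan1 made up 4.96 ± 2.25% of the 3 RCAN genes in KO AngII, 3.54 ± 1.89% in KO control, 16.6 ± 2.32% in WT AngII and 7.03 ± 2.87% in WT control aortas (SD, n = 6 each). KO AngII libraries spanned 2.65% to 8.35% and WT AngII libraries 13.9% to 18.8%. The share was not tested, since it uses the same Rcan1 counts.

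Cabin1, on chromosome 10 (positions 75646112 to 75764341, minus strand), had 55.7 to 112 CPM in KO AngII (median 99.0), 35.0 to 105 CPM in KO control (median 77.7), 54.1 to 98.9 CPM in WT AngII (median 73.0) and 62.2 to 87.2 CPM in WT control aortas (median 76.4). The lowest value was in KO control female 1, the library with 0 counts of Rcan1. KO and WT differed by 0.28 ± 0.19 log2 under AngII (95% interval -0.09 to 0.65) and by -0.12 ± 0.19 log2 in controls. AngII differed from control by 0.35 ± 0.19 log2 in KO and -0.06 ± 0.19 log2 in WT mice. In males under AngII the KO libraries (102 to 112 CPM) lay above the WT libraries (79.2 to 98.9 CPM), as for 5.71% of all genes. That difference was 0.30 ± 0.26 log2. In females the WT AngII libraries (54.1 to 66.7 CPM) lay below the WT controls (68.1 to 79.1 CPM), as for 5.59% of all genes. This difference was -0.25 ± 0.27 log2. None was called.

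Chp1, on chromosome 2 (positions 119547697 to 119587027, plus strand), was the steadiest of the 6 genes. It had 38.0 to 57.7 CPM in KO AngII (median 51.8), 30.6 to 63.4 CPM in KO control (median 53.6), 42.5 to 64.5 CPM in WT AngII (median 52.8) and 39.9 to 56.8 CPM in WT control aortas (median 50.1). KO and WT differed by -0.09 ± 0.18 log2 under AngII (95% interval -0.44 to 0.26) and -0.08 ± 0.18 log2 in controls, and AngII and control by 0.09 ± 0.18 log2 in KO and 0.10 ± 0.18 log2 in WT mice. None was called. The median coefficient of variation within the 8 groups was 11.2% for Chp1, 15.2% for Cabin1, 15.4% for Rcan2, 23.1% for Rcan3, 34.8% for Rcan1 and 41.5% for Akap5. Counting alone would give 7.14% for Chp1 and 16.5% for Akap5.

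Akap5, the anchoring protein, on chromosome 12 (positions 76324891 to 76334153, plus strand), was scarce and uneven. KO AngII females had 16.6, 3.32 and 7.58 CPM and KO AngII males 6.97, 1.82 and 7.21 CPM. KO control females had 19.1, 14.03 and 0.554 CPM, the last from a single count, and KO control males 8.30, 9.36 and 12.2 CPM. WT AngII females had 10.0, 21.9 and 10.8 CPM and WT AngII males 8.29, 7.40 and 9.49 CPM, against 8.79, 10.7 and 17.3 CPM in WT control females and 10.4, 19.1 and 13.7 CPM in WT control males. Over both sexes all groups overlapped.

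In males the AngII libraries of Akap5 lay below the controls in both genotypes, at -0.92 ± 0.66 log2 in KO and -0.78 ± 0.65 log2 in WT males, and neither was called. The same separation was seen for 5.3% of all genes in KO and 6.09% in WT males. In females the groups overlapped, at -0.27 ± 0.66 log2 in KO and 0.21 ± 0.64 log2 in WT mice. KO AngII males also lay below WT AngII males, by -0.68 ± 0.67 log2, as for 6.47% of all genes, and this was not called. Over both sexes AngII and control differed by -0.60 ± 0.47 log2 in KO and -0.28 ± 0.45 log2 in WT mice. KO and WT differed by -0.65 ± 0.46 log2 under AngII and -0.33 ± 0.46 log2 in controls. Single libraries moved these values by over 1.5 times. The KO against WT difference under AngII was -1.03 log2 without KO AngII female replicate 1, -0.44 without WT AngII female replicate 2 and -0.43 without KO AngII male replicate 2. Over the 24 fits without 1 library the KO against WT difference in controls was -0.61 to -0.11 log2, and AngII against control was -0.96 to -0.32 log2 in KO and -0.51 to -0.12 log2 in WT mice. The 95% interval under AngII, -1.56 to 0.26, was wide enough to overlap that of Rcan1.

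**Figure D3:**
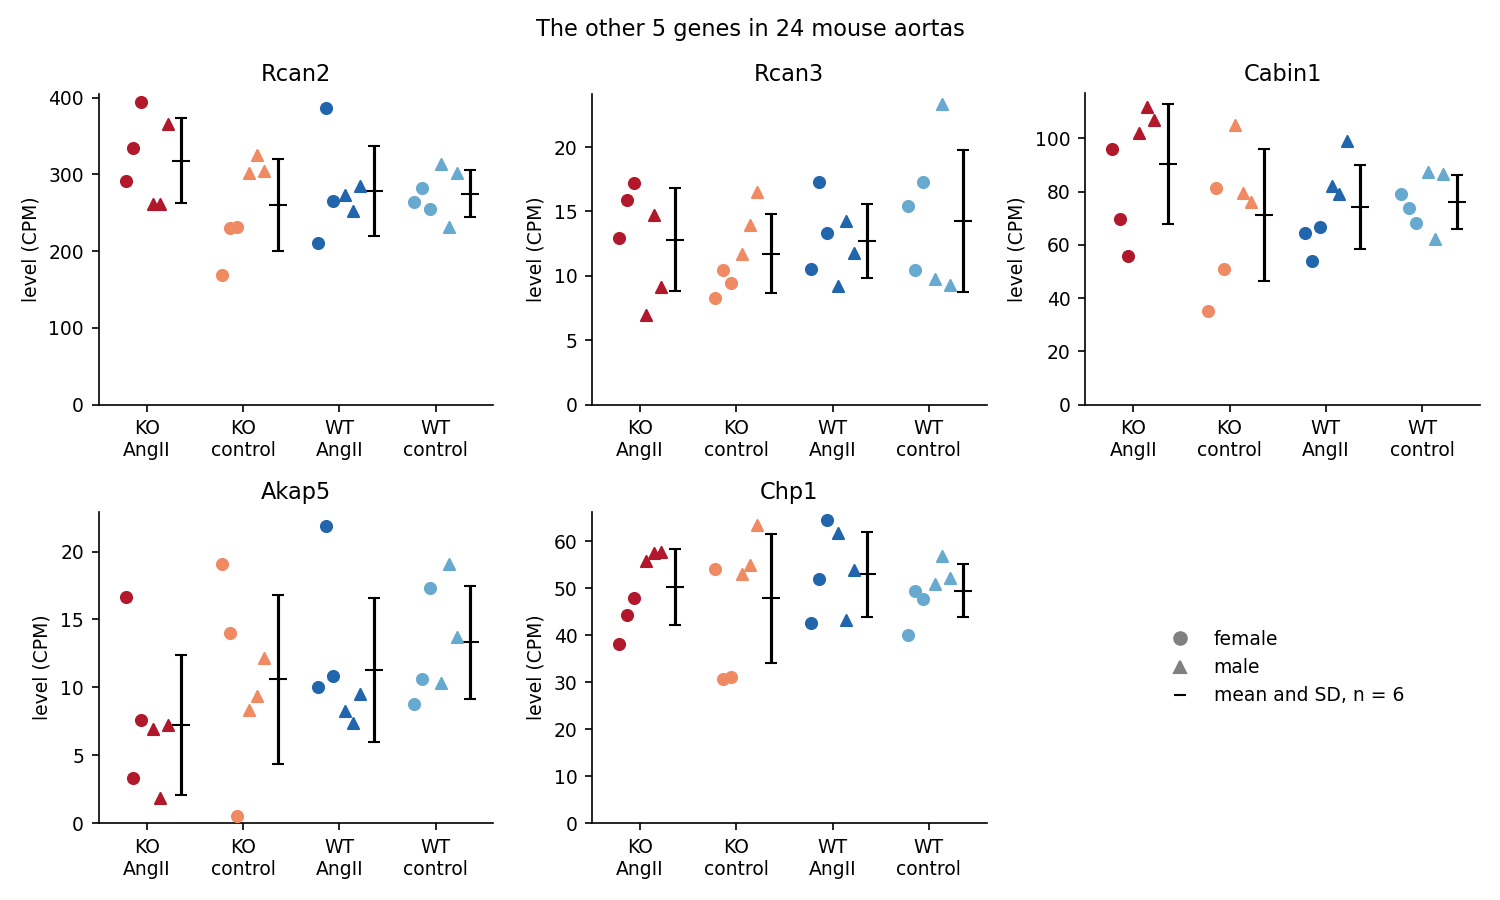
Rcan2, Rcan3, Cabin1, Akap5 and Chp1 in CPM (y axes, each starting at 0) in the 24 libraries, in 4 groups of genotype and treatment with circles for females and triangles for males. Marks and bars are the mean and SD of 6 libraries. The 4 groups overlap for each of the 5 genes.

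Side by side, Rcan1 differed from the other members in the size of its values. The largest difference among the other 5 genes in the 5 comparisons over both sexes was -0.65 ± 0.46 log2, for Akap5, against -1.83 ± 0.35 log2 for Rcan1 in the same comparison. For the KO response minus the WT response they were at 0.29 ± 0.24 log2 for Rcan2, 0.30 ± 0.43 for Rcan3, 0.40 ± 0.27 for Cabin1, -0.32 ± 0.65 for Akap5 and -0.01 ± 0.26 for Chp1, whose sign turned under upper-quartile size factors. No test of one member against another was made.

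**Figure D4:**
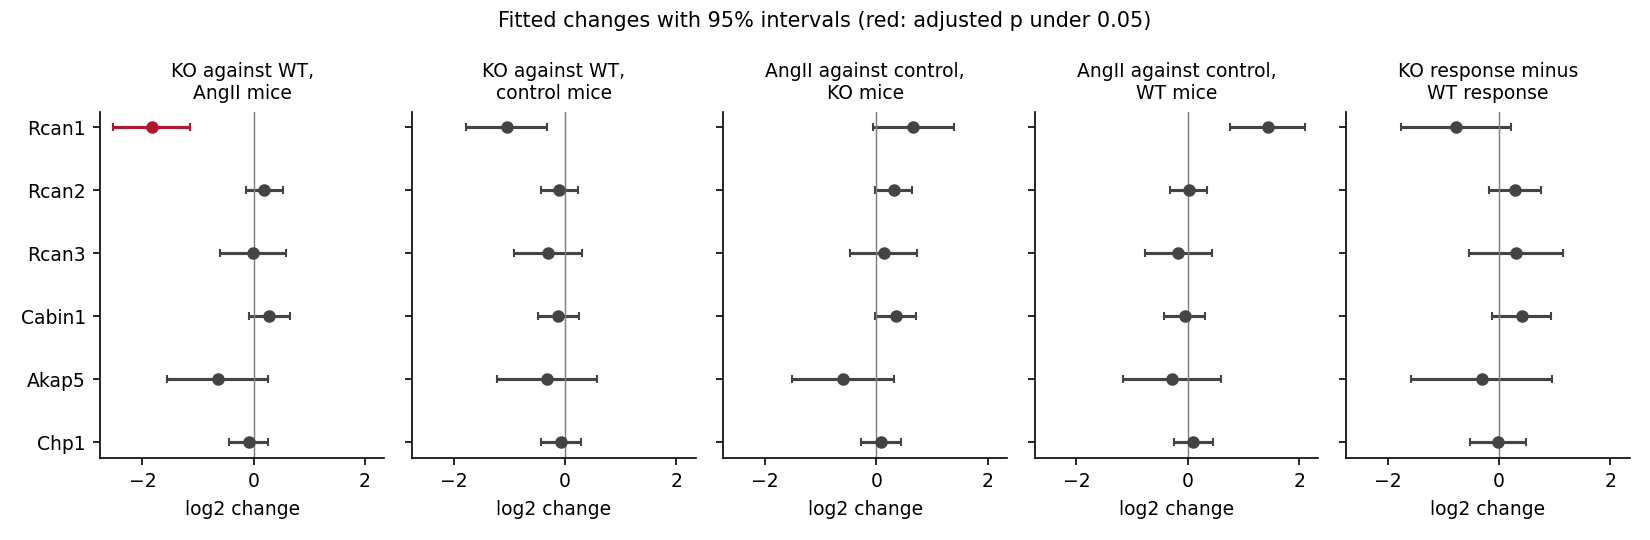
Fitted log2 changes (x axes) of the 6 genes in the 5 comparisons over both sexes, with 95% intervals. Red marks an edgeR adjusted p under 0.05. The Rcan1 difference between KO and WT mice under AngII, -1.83 log2, is the only red point.

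Per length, Rcan2 was the most abundant of the 6. Its mean over 24 libraries was 64.8 ± 12.3 CPM per kb of exon (SD, range 38.6 to 90.2), above 98.5% of the protein-coding genes tested. Chp1 followed at 14.3 ± 2.61 CPM per kb, then Cabin1 at 6.42 ± 1.60, Rcan1 at 6.09 ± 4.77, Rcan3 at 2.52 ± 0.75 and Akap5 at 1.56 ± 0.79 CPM per kb. Rcan2 lay above Chp1, and Chp1 above Cabin1, in 24 of 24 libraries. Cabin1 lay above Rcan1 in 17, and the order turned with the group, since Rcan1 lay above Cabin1 in 6 of 6 WT AngII libraries and in 1 other, WT control female 3. The ranges of the 2 genes overlapped, as did those of Rcan1 and Rcan3 and of Rcan3 and Akap5, where the order held in 21 libraries each.

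**Figure D5:**
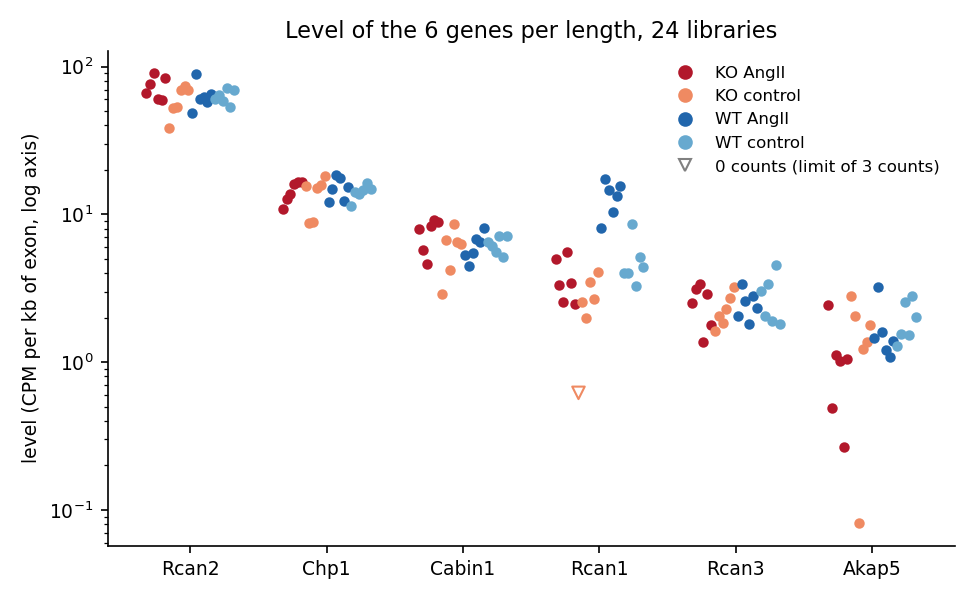
Level of each gene in CPM per kb of exon (log y axis) in 24 libraries, coloured by genotype and treatment and ordered by the mean. The open triangle marks the library with 0 counts of Rcan1, drawn at its limit of 3 counts. Rcan2 lies above every other gene, and the WT AngII libraries stand at the top of the Rcan1 column.

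Across the 24 libraries, the levels most like that of Rcan1, among 7345 protein-coding genes searched, were those of Inpp4a (Pearson's r = 0.895, Spearman's rho = 0.829), Actn4 (0.894 and 0.732), Serpinh1 (0.888 and 0.69), Rabgef1 (0.875 and 0.677) and Ctgf (0.872 and 0.852). Inpp4a and Rabgef1 act in phosphoinositide and endosome signalling, Actn4 is an actin crosslinker, Serpinh1 a collagen chaperone and Ctgf a matricellular protein. Without the 2 libraries farthest from the median of Rcan1, r was 0.86 for Ctgf and 0.667 to 0.744 for the other 4. Rcan2 was most like Hnrnpk (r = 0.786), Rcan3 like Srpk2 (r = 0.728), Cabin1 like Ubald1 (r = 0.86), Akap5 like Wdr95 (r = 0.866) and Chp1 like Slc27a4 (r = 0.763). Without the 2 libraries farthest from the median of each member, r in the same order was 0.655, 0.663, 0.716, 0.69 and 0.675. These are descriptions over libraries that share groups and depth, with no test.

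Other genes of the calcineurin and NFAT pathway were read from a list. Of 58 listed subunits, calmodulins, NFAT factors and kinases, partners and NFAT-responsive genes, 45 were tested. Under AngII 1 was called lower in KO mice and 0 higher, and that was Ppp3cb (-0.96 ± 0.22 log2, edgeR adjusted p = 0.0394), the targeted gene, where 0.355% of all genes were called. In controls it was again Ppp3cb, at -1.06 ± 0.22 log2 (edgeR adjusted p = 0.0297), where 0.221% of all genes were called, and 0 were higher. The median of the 45 genes was -0.06 log2 under AngII, against 0.01 over all genes tested, and -0.14 log2 in controls, against -0.01.

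AngII called 0 of the 45 in KO mice, where 0% of all genes were called, and 0 in WT mice, where 0.208% were, so these counts do not set the list apart. The list had medians of 0.18 log2 in KO and 0.17 log2 in WT, against 0.01 and -0.01 over all genes. The KO response minus the WT response called 0 as well, as it did among all genes, with a median of 0.03 log2 against 0.04. Over all mice, Vcam1, an endothelial adhesion molecule, was higher in KO aortas (0.85 ± 0.22 log2, edgeR adjusted p = 0.0483), where 1.34% of all genes were called. Tnfrsf11b, which encodes the decoy receptor osteoprotegerin, was higher with AngII over all mice (1.42 ± 0.31 log2, edgeR adjusted p = 0.0184), where 0.656% were. Of the 18 NFAT-responsive genes listed, 10 were tested, and their median with AngII was 0.09 log2 in KO and 0.54 log2 in WT mice. For the KO response minus the WT response their median was -0.32 log2. Between genotypes, 7 of the 10 were higher in KO controls, with a median of 0.32 log2. Under AngII 4 of the 10 were higher in KO, with a median of -0.15 log2. In each of these comparisons 0 of the 10 were called.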

How the data were processed

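The data were 24 aorta libraries, whose whole-number read counts per gene were deposited by the authors as 1 table without normalization. The submitters' processing notes name featureCounts 1.4.6, Bowtie2 2.2.5, TopHat2 2.0.14, cutadapt 1.8.1 and build mm10, and settings and strandedness are not given in the sources used here. Columns were assigned through sample titles and descriptions. In all, 6547 genes of chromosomes 9, X, Y and MT and of chromosome 8 after position 97565603 have 0 counts in every library, and Nfatc3, Nfat5 and Trpc6 among them were not analysed here.

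From the counts, genes were kept by filterByExpr (minimum count 10, total 15), libraries were scaled by TMM, and a quasi-likelihood model with 8 group coefficients was fitted in edgeR 4.0.16 (R 4.3.3, limma 3.58.1), two-sided, with Benjamini-Hochberg adjustment over 16316 genes and calls at an adjusted p under 0.05. A comparison over both sexes averages its contrasts in females and in males. Log2 CPM used a prior count of 2. The pipeline was tested on simulated data. Alternatives were other size factors, filters and library sizes, DESeq2 1.42.0, limma-voom with and without quality weights, only the groups compared, 1 sex, fewer KO control females, the receptor share or replicate number as a term, and leaving out each library. Coordinates and exon lengths are from GENCODE M21, which matched 40254 of 41128 identifiers.

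The members and lists were chosen with earlier results of these data known. Named genes were the 6 members, pathway genes called in a comparison over both sexes, Ppp3cb, and for each member the 5 protein-coding genes with the highest Pearson's r, of which the first is given beyond Rcan1. Cell type markers called between genotypes within a treatment, or between treatments within a genotype, are also named. Libraries of 1 group were not copies of one another.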

Additional observations from a re-analysis of the deposited data

Results flagged for a closer look

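Rcan1 stood at 26.8 CPM in WT control female 3, while the other 5 WT controls lay between 10.1 and 15.8 CPM. Akap5 stood at 21.9 CPM in WT AngII female 2, while the other 5 WT AngII libraries lay between 7.40 and 10.8 CPM. In each case the gap to the nearest library took up more of the group's range than Dixon's 95% limit for 6 libraries allows. Of the 24 groups of 6 tested this way, chance gives about 1 in 20.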

How the results depend on the processing

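For Rcan1, the KO against WT difference under AngII was called in 35 of 38 other settings. It was lost in females only (-1.85 log2), in males only (-1.78) and with the receptor share as covariate (-2.32). Fits within 1 sex hold fewer libraries, and the fit with the covariate holds all 24. The cause of these losses was not tested. Leaving out 1 library gave -2.02 to -1.74. Over all mice it was called in 34 of 37 and lost in the same 3. These gave -1.82 for females fitted alone (adjusted p = 0.051, edgeR), -1.06 for males fitted alone and -1.82 with the covariate. Without 1 library the values were -1.64 to -1.32. The WT AngII difference was called in 9 of 38: with no filter (1.45), DESeq2 (1.39), limma-voom (1.45), quality weights (1.63), only the groups compared (1.41) and KO control females reduced to replicate 2 (1.44), and in 3 of the 24 fits without 1 library (1.32 to 1.68 over all 24). The AngII effect over all mice was called in 15 of 37. It was lost with RLE factors (1.01), the stricter filter of 50 counts in 3 libraries (1.00), limma-voom (1.22), females only (1.19), males only (0.88), KO control females reduced to replicate 2 (0.89), the receptor covariate (1.26) and the replicate block (1.08, adjusted p = 0.0504), and in 14 of 24 fits without 1 library (0.92 to 1.22). Rcan1 was called in no setting for KO against WT controls (-1.79 to -0.35), for AngII in KO mice (0.16 to 1.16) or for the KO minus WT response (-1.43 to -0.06).

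Of 945 values for the other 5 genes none was called, and 60 took the other sign, 24 of them without 1 library. For KO against WT under AngII, Rcan3 had 0.045 (RLE factors), 0.045 (upper-quartile factors), 0.057 (the stricter filter), 0.048 (DESeq2), 0.026 (limma-voom), 0.022 (only the groups compared), 0.19 (females only), and Chp1 had 0.13 (males only). For AngII in WT, Rcan2 had -0.029 (RLE factors), -0.020 (upper-quartile factors), -0.041 (the stricter filter), -0.029 (DESeq2), -0.00405 (only the groups compared), -0.090 (males only), -0.21 (the receptor covariate), and Rcan3 had 0.089 (quality weights), 0.061 (the receptor covariate), and Akap5 had 0.18 (females only), and Cabin1 had 0.12 (males only), and Chp1 had -0.036 (males only). For the KO minus WT response, Chp1 had 0.0098 (upper-quartile factors), 0.00614 (no filter), 0.054 (limma-voom), 0.044 (quality weights), 0.052 (males only), 0.17 (fewer KO control females), 0.024 (protein-coding library sizes), and Rcan3 had -0.12 (males only). For KO against WT controls, Chp1 had 0.00745 (the stricter filter), 0.075 (males only), and Rcan2 had 0.11 (males only), 0.17 (the receptor covariate), and Cabin1 had 0.11 (males only), 0.10 (fewer KO control females). For AngII in KO, Rcan2 had -0.047 (males only), and Rcan3 had -0.41 (males only). Without 1 library the range was -0.19 to 0.083 for Rcan3 in KO against WT under AngII, -0.13 to 0.10 for Rcan2 and -0.28 to 0.11 for Rcan3 with AngII in WT, -0.038 to 0.25 for Rcan3 with AngII in KO and -0.056 to 0.14 for Chp1 in the KO minus WT response.

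The number of genes called varied widely: 58 with a range of 0 to 200 for KO against WT under AngII, 36 (0 to 399) in controls, 34 (0 to 329) for AngII in WT, 0 (0 to 113) in KO, 0 (0 to 12) for the KO minus WT response, and over all mice 219 (4 to 624) for genotype and 107 (0 to 276) for AngII. Replicate numbers did not pair the libraries: over 24 pairs with 1 number, the correlation of deviations from the group means was -0.024 to 0.132. The replicate block changed no other call of Rcan1. Akap5, Rcan3 and Rcan1 had the fewest counts, with medians of 34.5, 45.5 and 54.5 a library, and so the largest counting error. For each of these genes the median spread within groups was larger than counting alone would give.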
